A study of Mus musculus with 2 samples.

Results

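Genes of fatty acid oxidation and targets of the PPAR nuclear receptors were followed across the cell types of the injured mouse kidney. The set holds 36 genes listed by symbol, and all 36 were found among the 32285 genes counted in both libraries. The list was chosen with earlier results of these data known. Values were read by nephron segment, injury state and macrophage type, with cell classes assigned from marker genes that did not include the 36 genes.

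Kidneys were collected on day 14 after unilateral ischemia reperfusion injury by clamping of the renal artery, and both groups of mice had received 4 tamoxifen injections. The control group was Cre-, and the other group, called haplodeficient below, carried Cdh5-CreERT2 with Phd3f/+, that is 1 floxed allele of the oxygen-sensing prolyl hydroxylase PHD3 under a tamoxifen-inducible Cre driven by the endothelial Cdh5 promoter. Tubule cells and leukocytes, in which most of the 36 genes were read, are therefore not the cells in which this Cre is meant to act. Each group was 1 single-cell library of 3′-end transcript counts, and the labels give neither the number, sex or age of the animals nor whether the Cre- mice carried the floxed allele. With 1 library per group there is no replicate check, cells are not replicates, and no p-value is given.

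Fatty acids enter cells through carriers such as CD36, are activated to acyl-CoA esters by synthetases, and reach the mitochondrial matrix through the carnitine shuttle. There, repeated rounds of dehydrogenation, hydration, oxidation and thiolysis shorten the chain, while very long and branched chains are shortened in peroxisomes. The nuclear receptor PPARα, its coactivator PGC-1α (Ppargc1a) and the orphan receptor ERRα (Esrra) drive transcription of many of these enzymes. The proximal tubule, divided along its length into segments S1, S2 and S3, is known for its reliance on fatty acid oxidation for energy, and loss of this program is a known feature of injured tubules.

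After filtering, 8737 control and 9222 haplodeficient cells remained, with a median of 8545 and 5358.5 transcript counts (unique molecular identifiers, UMIs) per cell. Mitochondrial transcripts made up a median of 10.0% of a control cell's UMIs and 2.71% of a haplodeficient cell's. The libraries shared 20 cell barcodes. The gene of PHD3, Egln3, had 64 UMIs in control and 104 in haplodeficient endothelium, 21.4 and 18.5 counts per 1000000 UMIs of the class (CPM). These counts do not show whether the floxed part was deleted. Class sizes were very unequal, with 1138 control and 123 haplodeficient S1/S2 cells, 1324 and 87 S3 cells, and 628 and 340 injured proximal tubule cells. Most proximal tubule markers were highest in the class they name among S1/S2, S3 and injured cells, with 2 exceptions. Slc22a6, listed for S1/S2 cells, stood at 122 and 135 CPM there and at 759 and 513 CPM in S3 cells, and the injury marker Krt8 stood at 629 CPM in haplodeficient S1/S2 cells against 523 CPM in injured ones. Slc5a2, the S1/S2 glucose transporter, stood at 850 CPM in control S1/S2 cells and 97.2 CPM in control S3 cells. The S3 amino acid transporter Slc7a13 stood at 323 CPM in control S3 cells and 1.43 CPM in S1/S2 cells. Havcr1, the injury marker KIM-1, stood at 698 CPM in injured cells against 6.66 CPM in S1/S2 and 42.9 CPM in S3 cells of the control library.

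The 36 genes took their largest share of transcripts in the proximal tubule and their smallest in T cells, natural killer cells and neutrophils. Summed over S3 cells, they made up 0.806% of UMIs in the control library and 0.642% in the haplodeficient one. S1/S2 cells gave 0.497% and 0.429%. Injured proximal tubule cells gave 0.319% and 0.312%, so that their share was below those of S1/S2 and S3 cells in both libraries. Among the other epithelia the share was 0.305% and 0.265% in the thick ascending limb, 0.260% and 0.229% in the distal convoluted tubule, 0.240% and 0.232% in intercalated cells, 0.204% and 0.208% in the descending thin limb, and 0.193% and 0.179% in principal or connecting tubule cells. T cells gave 0.101% and 0.0909%, natural killer cells 0.0803% (20 control cells) and 0.0899%, and neutrophils 0.0946% and 0.112%. Endothelium gave 0.125% and 0.126%, monocytes 0.156% and 0.159%, and Mrc1-type macrophages 0.127% and 0.126%. Macrophages with Gpnmb-type markers stood above Mrc1-type macrophages, at 0.214% and 0.182%.

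**Figure D1:**
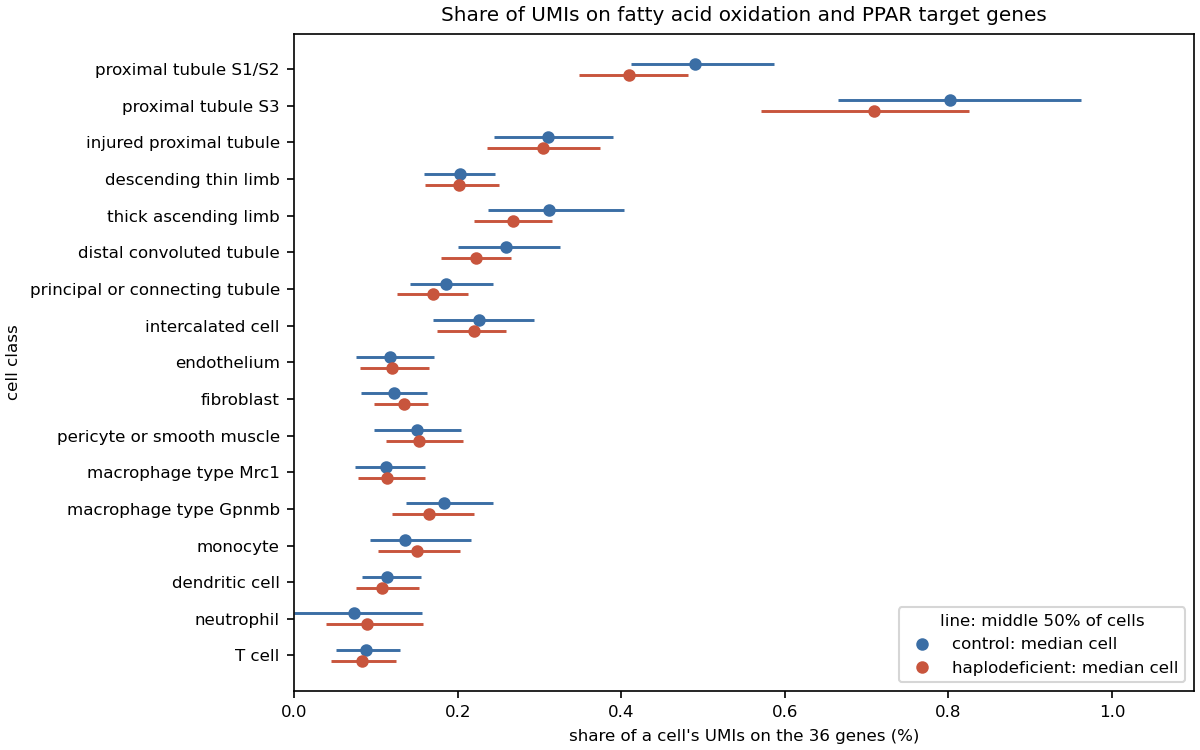
Share of each cell's UMIs on the 36 genes (x axis, %) by cell class (y axis), with a point for the median cell of each library and a line over the middle 50% of cells. S3 cells lie highest and injured proximal tubule cells lie below S1/S2 cells in both libraries.

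By gene, 29 of the 36 were highest in an S1/S2 or S3 class in the control library and 24 in the haplodeficient library, among 16 and 18 classes of at least 50 cells, and 25 had the same highest class in both. The class sets differed, as podocytes (27 and 92 cells) and natural killer cells (20 and 132) were ranked in the haplodeficient library alone. Podocytes there had the highest levels of Eci1 and Acaa1a, at 137 and 111 CPM. Their median was 992 UMIs per cell, with an estimated 20.6% of free RNA, as read from near-empty barcodes. The exceptions in the control library had different homes. Ppargc1a stood at 432 CPM in the thick ascending limb, 341 CPM in intercalated cells and 324 CPM in the distal convoluted tubule, against 192 CPM in S1/S2 cells. The order differed in the haplodeficient library, with Ppargc1a at 254 CPM in intercalated cells, 226 CPM in the distal convoluted tubule and 211 CPM in the thick ascending limb, where the intervals of the first pair overlapped. Cpt1a, the carnitine acyltransferase at the outer mitochondrial membrane, was highest in the control distal convoluted tubule at 207 CPM and in the haplodeficient thick ascending limb at 147 CPM. The subunits of the mitochondrial trifunctional protein, Hadha and Hadhb, are encoded head to head with 85 bases between them, and both were highest in the control thick ascending limb (170 and 153 CPM) and in haplodeficient intercalated cells (139 and 148 CPM), where Hadha was level with pericytes or smooth muscle and the thick ascending limb (139 CPM each).

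Some members had high levels in leukocytes. Cd36 stood at 249.5 CPM in control and 217 CPM in haplodeficient macrophages and at 243 and 321 CPM in monocytes, and Plin2, which coats lipid droplets, at 481 and 453 CPM in all macrophages. Slc25a20, the carnitine and acylcarnitine carrier of the inner membrane, was highest in dendritic cells in both libraries, at 95.2 and 87.0 CPM. Acsl1, a long-chain acyl-CoA synthetase, reached 163 CPM (27 UMIs) and 214 CPM in neutrophils, and was highest there in the haplodeficient library alone. It stood at 216 and 111 CPM in S1/S2 cells and at 178 and 122 CPM in the thick ascending limb. Outside the tubule, Cyp4b1, a cytochrome P450 that hydroxylates fatty acids, also stood at 147 and 137 CPM in endothelium. An estimated 21.9% of the control value and 1.33% of the haplodeficient value there corresponded to free RNA, as read from near-empty barcodes.

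At the other end, Fabp1, the liver fatty acid binding protein, was nearly absent, with a maximum of 4.11 CPM (66 UMIs) in control S1/S2 cells and 2 UMIs in the haplodeficient ones. Acox2, an acyl-CoA oxidase of branched chains, was low in every class, with its highest value of 34.9 CPM in control S3 cells against 8.38 CPM (10 UMIs) in haplodeficient S3 cells. Eci3, Acaa1b and Cyp4b1 had only 1.76, 2.97 and 8.53 CPM in the control thick ascending limb, all of which the free RNA estimate could supply, so these values were read as background.

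**Figure D2:**
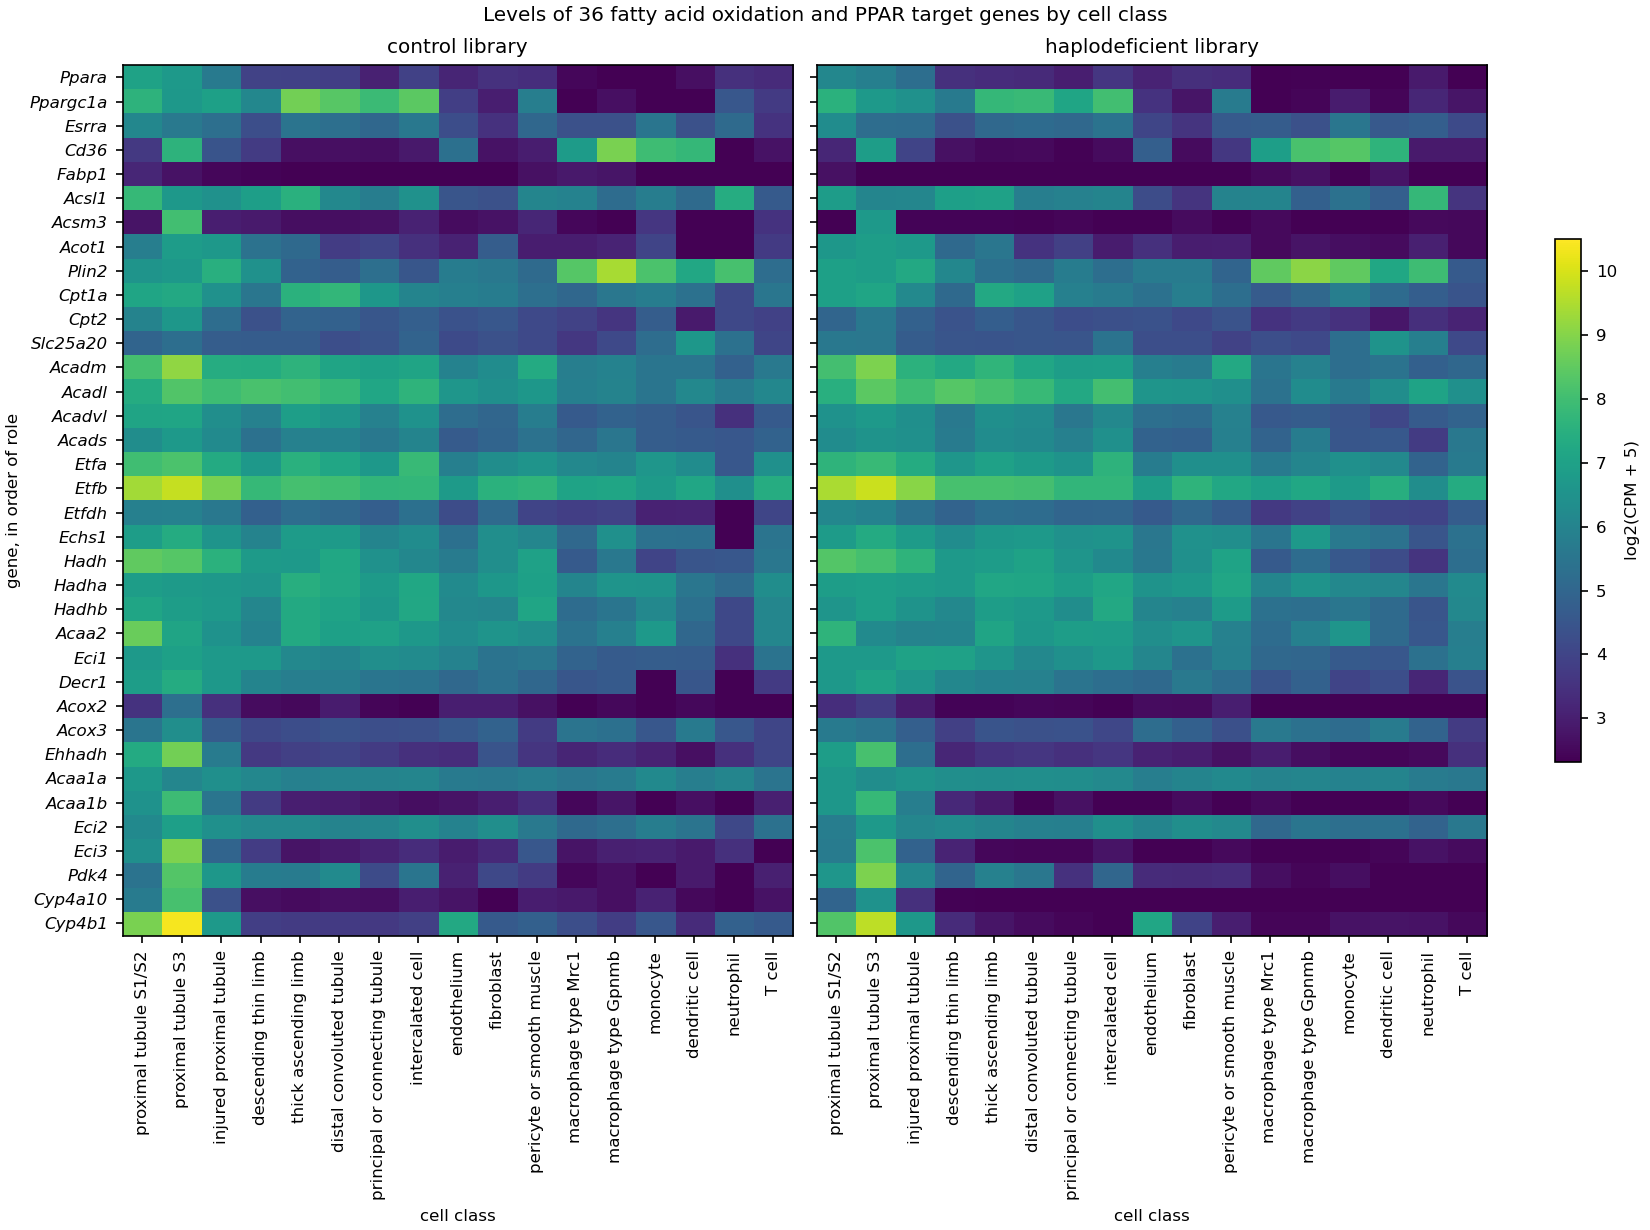
Level of each of the 36 genes (rows, ordered by role) in each cell class (columns) as log2 of CPM plus 5, for the control library (left) and the haplodeficient library (right). Ehhadh, Acaa1b, Eci3, Cyp4a10 and Cyp4b1 are brightest in the S3 column, dimmer in the S1/S2 and injured columns and dark in most others. Acaa1a and Eci2 are of similar brightness across classes.

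2 gene pairs of the peroxisomal group had unlike distributions. Acaa1a and Acaa1b encode peroxisomal 3-ketoacyl-CoA thiolases, lie near each other on chromosome 9 (119339676 to 119350299 on the plus strand and 119148023 to 119157093 on the minus strand, GENCODE on GRCm38, both protein-coding) and are close copies, so 3′ counts may not separate them fully. Acaa1a was at a similar level everywhere, with 97.2 and 95.6 CPM in S1/S2 cells, 63.0 and 75.4 CPM in S3 cells, 79.0 and 86.4 CPM in injured cells and 54.4 and 76.3 CPM in the thick ascending limb. Acaa1b was high mainly in the proximal tubule, with 84.3 and 94.9 CPM in S1/S2 cells, 237 and 220 CPM in S3 cells, 40.4 and 51.8 CPM in injured cells and 2.97 and 2.39 CPM in the thick ascending limb. The 120 bases before each RefSeq start site are shown because they differ in composition, with the base pairs CG in capitals (8 in Acaa1a and 1 in Acaa1b, against a median of 3 over 27025 genes). They come from RefSeq on GRCm38.p6, at chr9:119341174-119341293 on the plus strand for Acaa1a and chr9:119157094-119157213 on the minus strand for Acaa1b, and overlap no annotated exon. The RefSeq start used for Acaa1a lies inside the GENCODE gene, downstream of its first base.
Acaa1a: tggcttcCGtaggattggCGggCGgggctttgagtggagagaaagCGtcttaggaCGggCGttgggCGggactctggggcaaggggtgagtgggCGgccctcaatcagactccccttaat
Acaa1b: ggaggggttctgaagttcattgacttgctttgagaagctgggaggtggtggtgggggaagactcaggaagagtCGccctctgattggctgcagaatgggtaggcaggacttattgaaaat
Whether this base composition has to do with the levels was not tested. Eci2 and Eci3, enoyl-CoA isomerases encoded next to each other on chromosome 13, had the same contrast. Eci2 stood at 69.2 and 50.6 CPM in S1/S2 cells and 67.4 and 61.5 CPM in the thick ascending limb, while Eci3 stood at 79.7 and 47.8 CPM in S1/S2 cells and 1.76 and 0.532 CPM in the thick ascending limb.

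Between the segment classes, S3 cells held more of these transcripts than S1/S2 cells in each library, led by Acsm3, Cd36 and Pdk4. Genes were compared where they averaged at least 50 CPM over the pair of groups with at least 30 UMIs, so a gene high in 1 group can enter through that group alone. A gene counted as higher or lower where its log2 ratio, after adding 5 CPM to both levels, was at least 1 in size and the exact 95% Poisson intervals did not overlap. These intervals, and those of ratios, cover counting error only. In the control library 10 of 33 eligible members were higher and 2 lower in S3 cells, where 8.56% of all 2733 eligible genes passed the rule, 5.71% higher and 2.85% lower. Their median log2 ratio was 0.40, against -0.01 over all eligible genes. In haplodeficient cells 7 of 30 were higher and 2 lower, where 7.04% of 3138 genes passed, 3.09% higher and 3.95% lower, with a median of 0.23 against -0.01. Summed over the 36 genes, the ratio of S3 to S1/S2 cells was 1.62 and 1.5.

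Acsm3, a medium-chain acyl-CoA synthetase, stood at 255 CPM in control S3 cells and 1.81 CPM in S1/S2 cells, a log2 ratio of 5.25. Haplodeficient S3 cells had 99.7 CPM and S1/S2 cells 0 UMIs, which is at least 48.0-fold higher against a floor of 3 counts. Acsm3 thus marked S3 cells in both libraries. Cd36 rose from 7.91 to 189 CPM in the control and from 4.16 to 112 CPM in the haplodeficient library, log2 ratios of 3.91 and 3.68. Pdk4, the kinase that restrains pyruvate dehydrogenase, rose from 38.2 to 316 CPM and from 92.9 to 463 CPM, log2 ratios of 2.89 and 2.26. Eci3 rose from 79.7 to 483 CPM and from 47.8 to 287 CPM (2.52 and 2.47). Cyp4a10, a fatty acid ω-hydroxylase, rose from 48.1 to 275 CPM and from 26.3 to 84.6 CPM (2.40 and 1.52). Its close copies Cyp4a31 and Cyp4a32 make the split of counts uncertain. For each of these genes the S3 interval lay wholly above the S1/S2 interval.

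Cyp4b1 (log2 ratios 1.54 and 1.41), the peroxisomal bifunctional enzyme gene Ehhadh (1.45 and 1.24) and Acaa1b (1.44 and 1.17) were also higher in S3 cells of both libraries. Acadm, the medium-chain acyl-CoA dehydrogenase, passed in the control alone, at 1.05 against 0.83, and so did the acyl-CoA thioesterase gene Acot1, at 1.03 against 0.22. The difference between libraries was not tested, and Acot1 shares near-identical sequence with Acot2.

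The thiolase of the mitochondrial spiral, Acaa2, went the other way. It was at 396 CPM in control S1/S2 and 132 CPM in control S3 cells, and at 195 and 69.5 CPM in the haplodeficient library, log2 ratios of -1.55 and -1.43. Acsl1 was lower in S3 cells, at 216 against 98.8 CPM in the control (-1.09) and 111 against 60.3 CPM (-0.83) in the haplodeficient library, where it did not pass. The lowest ratios after these in the control were those of Ppargc1a (192 against 97.7 CPM, -0.94), Acaa1a (97.2 against 63.0 CPM, -0.59) and Esrra (63.4 against 44.5 CPM, -0.47). Esrra passed in haplodeficient cells, at 74.1 against 32.7 CPM (-1.07), and Ppargc1a was at 180 against 101 CPM (-0.81). Ppara was at 125 against 101 CPM in the control (-0.29) and at 63.8 against 52.8 CPM in the haplodeficient library (-0.25), where its intervals overlapped. All 3 regulators thus had lower values in S3 than in S1/S2 cells, although the set as a whole was higher there.

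Of 74 other fatty acid oxidation and PPAR genes, 36 were eligible in the control library, with 8 higher and 1 lower in S3 cells and a median of 0.36. There were 33 eligible in the haplodeficient library, with 3 higher and 1 lower and a median of 0.25. Slc27a2, a very long chain acyl-CoA synthetase and carrier, rose from 548 to 1550 CPM in the control library and from 443 to 1334 CPM in the haplodeficient one. Fabp3, a fatty acid binding protein, was lower in S3 cells, at 294 against 31.3 CPM and 373 against 91.3 CPM. Lpl, lipoprotein lipase, was higher at 236 against 49.9 CPM and 152 against 8.32 CPM.

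Injured proximal tubule cells, those of the Havcr1 cluster, had lower values of most members than S1 to S3 cells of the same library. In the control library 11 of 30 eligible members fell and none rose, where 19.2% of 3161 eligible genes passed in either direction and 7.43% fell. The median log2 ratio was -0.75, against 0.29 over all eligible genes, and 27 of the 30 were below 0. In haplodeficient cells 6 of 25 fell and none rose, where 12.6% of 3326 genes passed and 6.67% fell, with a median of -0.38 against 0.06 and 22 of 25 below 0. The summed level of the 36 genes was 0.486 (95% interval 0.480 to 0.491) and 0.595 (0.582 to 0.608) of that in S1 to S3 cells. Against S1/S2 cells alone, 6 of 26 members fell and 1 rose in the control (19.1% of all genes passed, 6.39% lower) and 5 of 26 fell in the haplodeficient library (14.6% passed, 7.84% lower). Against S3 cells alone, 11 of 30 fell (21.8% passed, 8.41% lower) and 7 of 26 fell (14.3% passed, 7.26% lower). The medians were -0.59 and -0.35 against S1/S2 cells and -0.79 and -0.47 against S3 cells, so the direction was the same with either segment.

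By role, the peroxisomal genes had medians of -1.89 in the control library and -1.46 in the haplodeficient one over 5 eligible genes each, and a summed level of 0.302 and 0.406 of that in S1 to S3 cells. Within this group Acaa1a (-0.01) and Eci2 (-0.19) were near 0 in the control. Pdk4, Cyp4a10 and Cyp4b1 together were at 0.169 and 0.197. The medians were -0.52 and -0.12 for the mitochondrial acyl-CoA dehydrogenases (4 genes), -0.45 and -0.23 for the enzymes from hydration to thiolysis (7 genes), and -0.75 and -0.49 for the electron transfer flavoprotein subunits (2 genes). These are medians of eligible genes and were not tested against each other.

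Among the peroxisomal and ω-hydroxylation genes, Eci3 was at 288 CPM in S1 to S3 cells and 26.3 CPM in injured cells of the control library, and at 156 and 25 CPM in the haplodeficient library. The log2 ratios were -3.23 and -2.43. The haplodeficient Eci3 call passed under 10 of 12 other settings and not with each library clustered on its own (-0.52) or each cell named alone. Clustering each library on its own left no haplodeficient S3 class, so injured cells were then compared with cells named S1/S2 alone. Cyp4b1 was at 920 and 102 CPM, and at 533 and 97.1 CPM (-3.11 and -2.40). Ehhadh was at 296 and 48.3 CPM, and at 185 and 34.2 CPM (-2.50 and -2.28). Injured cells of the 2 libraries had similar levels of Eci3 and Cyp4b1, while the S1 to S3 levels differed between libraries. Acaa1b was at 163 and 40.4 CPM, and at 152 and 51.8 CPM (-1.89 and -1.46). The haplodeficient Acaa1b call was lost with each library clustered on its own (-0.64), again without an S3 class. Its copy Acaa1a was at 79.5 and 79.0 CPM, and at 86.5 and 86.4 CPM, with overlapping intervals in both libraries. Cyp4a10 fell from 165 to 15.5 CPM in the control (-3.05). Its haplodeficient levels, 52.7 and 6.02 CPM, were below the minimum mean.

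Of the uptake and activation genes, Acsm3 fell from 133 to 3.04 CPM in the control library (-4.10), a call lost at clustering resolution 2. Its log2 ratio there lay between -5.05 and -3.50 over the 12 other settings. The haplodeficient library had 45.1 CPM (119 UMIs) against 0.301 CPM (2 UMIs), a ratio of 0.00667 (95% interval 0.000799 to 0.0246), and the gene was not eligible there. Cd36 fell from 102 to 16.8 CPM in the control (-2.29) and was at 53.1 and 11 CPM in the haplodeficient library. Plin2 was the member with the highest ratio in both libraries, at 92.9 and 172 CPM in the control (0.86) and at 116 and 147 CPM in the haplodeficient library (0.33). Its intervals did not overlap in either library, but it did not pass the size rule. Acot1 was at 81.5 and 97.1 CPM (0.24) in the control and at 103 CPM in both states of the haplodeficient library.

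Within the mitochondrial spiral, Acaa2 fell in both libraries, from 259 to 85.9 CPM and from 138 to 58.7 CPM (-1.54 and -1.17). The haplodeficient Acaa2 call was lost with each library clustered on its own (-0.99, without an S3 class) and each cell named alone (-0.98). Acadm fell from 417 to 161 CPM in the control (-1.34) and was at 353 and 187 CPM in the haplodeficient library (-0.90). Cpt2, the inner carnitine acyltransferase, fell from 77.4 to 33.0 CPM in the control (-1.12), a call kept under 9 of 12 other settings, and was not eligible in the other library. Acadl, the long-chain acyl-CoA dehydrogenase, had nearly the same level in both states, at 236 and 244 CPM in the control and 248 and 242 CPM in the haplodeficient library, and its intervals overlapped. Eci1, an enoyl-CoA isomerase, was at 111 and 102 CPM in the control (-0.12) and at 102 and 126 CPM in the haplodeficient library (0.28). Acads, the short-chain dehydrogenase, was at 80.0 and 81.2 CPM (0.02) in the haplodeficient library.

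Of the regulators, Ppara fell from 112 to 45.6 CPM in the control library (-1.21) and was at 58.8 and 34.2 CPM in the haplodeficient library, where it was below the minimum mean. Ppargc1a was at 143 and 121 CPM (-0.23), and at 144 and 82.5 CPM (-0.77). Esrra was at 53.6 and 34.5 CPM, and at 55.4 and 31.8 CPM, below the minimum mean in both. Pdk4 fell in the haplodeficient library, from 261 to 63.7 CPM (-1.95), and was at 182 and 96.1 CPM in the control (-0.88). That ratio depended on the segment compared: against S1/S2 cells alone, Pdk4 was higher in control injured cells, at 96.1 against 38.2 CPM (1.23).

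**Figure D3:**
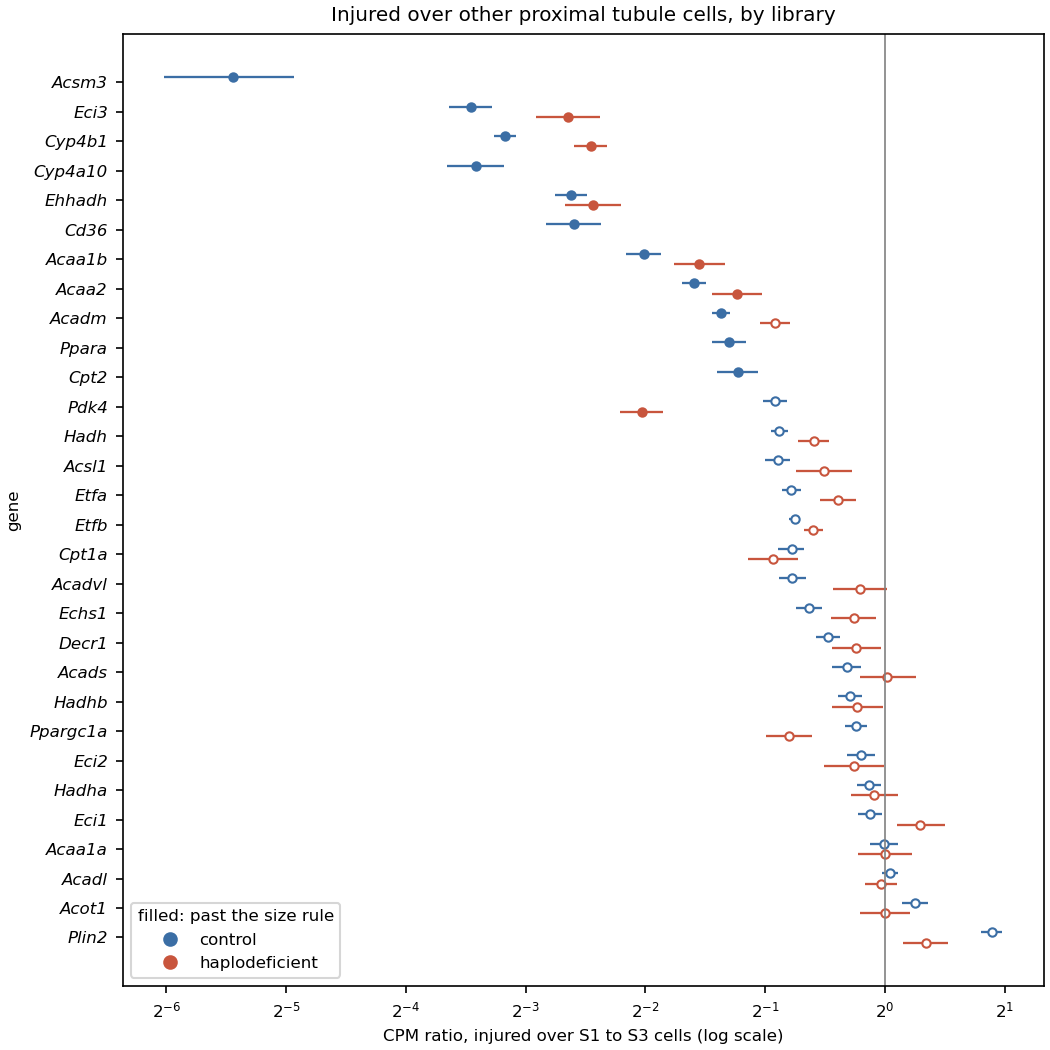
Ratio of CPM in injured over S1 to S3 proximal tubule cells (x axis, log scale) for the 30 members eligible in the control library (y axis, in order of that ratio), with exact 95% intervals as lines and filled points past the size rule. Genes not eligible in the haplodeficient library have no point there. Eci3, Cyp4b1 and Ehhadh lie far left in both libraries, and Plin2 lies right of 1 in both.

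The other lists put these ratios beside other programs. Of the 74 other fatty acid oxidation and PPAR genes, 17 of 32 eligible fell in the control and 17 of 30 in the haplodeficient library, with a median of -1.05 in both. Lpl fell from 146 to 5.48 CPM in the control (-3.85), and Pecr, a peroxisomal enoyl-CoA reductase, fell from 411 to 95.7 CPM in the control (-2.05) and from 424 to 116 CPM in the haplodeficient library (-1.82). Amacr, the racemase of branched chains, fell in both as well (-1.91 and -1.75). Nuclear oxidative phosphorylation genes had medians of -0.52 and -0.23 over 44 genes, with 1 and 0 past the rule. Glycolysis genes had medians of -0.09 and 0.05 over 8 eligible genes, with none past the rule. Proximal tubule transporter genes fell in 14 of 23 and 12 of 21 cases, with medians of -1.24 and -1.23, so that lower values were not limited to fatty acid genes. The markers that named S1/S2 cells are transporter genes as well, so this list may not be independent of the naming.

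Several measures moved with the injury state. Mitochondrial transcripts made up 23.2% of UMIs in control S1 to S3 cells and 9.80% in injured cells, and 11.4% and 6.04% in the haplodeficient library. With these transcripts left out of the total, the summed ratio of the 36 genes was 0.414 in the control library and 0.561 in the haplodeficient one. Stress genes known to respond to tissue dissociation had a median of 0.92 with 7 of 16 higher in control injured cells, and 0.13 with 1 higher and 2 lower in haplodeficient injured cells. Their part in the result was not tested. Markers of other cell types did not all move the same way. The 8 macrophage markers summed to 48.2 and 66.7 CPM in injured cells. They summed to 43.8 and 128 CPM in S1/S2 cells and 72.1 and 101 CPM in S3 cells. The thick ascending limb marker Cldn10 was lower in injured cells, at 186 and 231 CPM. It stood at 216 and 298 CPM in S1/S2 and 276 and 333 CPM in S3 cells. The monocyte marker Plac8 was higher in injured cells, at 186 and 197 CPM. It stood at 44.7 and 76.9 CPM in S1/S2 and 46.4 and 47.7 CPM in S3 cells. The distal convoluted tubule marker Sgms2 stood at 350 and 208 CPM in injured cells. Its levels were 130 and 222 CPM in S1/S2 and 157 and 199 CPM in S3 cells. The part of these markers in the result was not tested either. Shares of each cell's UMIs on the 36 genes and on the 12 injury markers were also compared, with mitochondrial UMIs left out of the total. Their Spearman correlation was -0.67 over 3090 control and -0.55 over 550 haplodeficient proximal tubule cells. These cells include the class named by the same injury markers. Both shares have the same denominator and cells of 1 library share their source, so this is a description only. Spp1 gave most of the injury marker counts. In injured cells it stood at 27656 of a summed 30744 CPM in the control and 22078 of 24981 CPM in the haplodeficient library. The injury marker share was thus mostly a reading of Spp1.

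Between libraries, most members of the proximal tubule differed less than the size rule asks. In S1/S2 cells 1 of 28 eligible members was higher and 1 lower in the haplodeficient library, where 3.97% of 2973 eligible genes passed, 3.3% higher and 0.673% lower. In S3 cells none was higher and 3 of 32 were lower, where 2.69% of 2863 genes passed and 0.908% were lower. With S1 to S3 cells pooled, the same 3 of 33 were lower, where 2.43% of 2957 genes passed and 0.812% were lower. That count ranged from 2 to 9 over the other settings tried, 7 with mitochondrial transcripts left out of the total and 9 with each cell named alone. In injured cells none of 22 passed, where 0.584% of 3424 genes did. The median log2 ratio of members was -0.08 in S1/S2, -0.23 in S3 and 0.00 in injured cells, against 0.23, 0.18 and 0.03 over all eligible genes. The S1/S2 median ranged from -0.31 to -0.07 over the other settings. The summed level of the 36 genes was 0.863 (0.841 to 0.885), 0.796 (0.778 to 0.815) and 0.979 (0.962 to 0.996) of the control level. With mitochondrial transcripts left out of the total, these ratios were 0.731, 0.703 and 0.940. The 36 genes thus had lower summed levels in haplodeficient S1/S2 and S3 cells, and nearly equal ones in injured cells. S1/S2 and S3 cells are those outside the Havcr1 cluster and cannot be taken as uninjured.

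The 3 genes lower in S3 cells were Cyp4a10, Acsm3 and Cpt2. Cyp4a10 stood at 275 CPM in the control and 84.6 CPM in the haplodeficient library, a ratio of 0.308 (0.250 to 0.375) and a log2 ratio of -1.64. Its values in the clusters that make up the S3 class were 293 and 88.0 CPM in the larger one and 207 and 67.0 CPM in the smaller one. Acsm3 stood at 255 and 99.7 CPM, which is a ratio of 0.391 (0.323 to 0.470). This difference came from the larger cluster, where it was at 210 and 43.0 CPM, whereas in the smaller one it was at 423 and 392 CPM with a ratio of 0.927 (0.726 to 1.17). Cpt2 stood at 95.6 and 43.6 CPM, which is a ratio of 0.456 (0.339 to 0.60) and a log2 ratio of -1.05, close to the threshold, and passed under 9 of 11 other settings. The larger cluster held 67 and the smaller one 20 haplodeficient cells.

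Next below the threshold in S3 cells came Acox3, a peroxisomal acyl-CoA oxidase, at 77.2 and 39.4 CPM (-0.89), and Acaa2, at 132 and 69.5 CPM (-0.88). At the upper end stood Pdk4, at 316 and 463 CPM (0.55), followed by Acaa1a (63.0 and 75.4 CPM, 0.24), Plin2 (96.9 and 113 CPM, 0.21), Hadha (105 and 119 CPM, 0.18) and Acadl (308 and 340 CPM, 0.14). The intervals of Acaa1a, Plin2, Hadha and Acadl overlapped between libraries, and those of Pdk4 did not.

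In S1/S2 cells Pdk4 stood at 38.2 CPM in the control and 92.9 CPM in the haplodeficient library, a ratio of 2.43 (2.00 to 2.94) and a log2 ratio of 1.18. Acaa2 stood at 396 and 195 CPM, which is a ratio of 0.494 (0.437 to 0.556) and a log2 ratio of -1.0. Both calls depended on the settings. Pdk4 passed under 4 of 12 other settings, with log2 ratios from 0.21 to 1.26, and Acaa2 under 9 of 12. Acsl1 (216 and 111 CPM, -0.93), Ppara (125 and 63.8 CPM, -0.92), Eci3 (79.7 and 47.8 CPM, -0.68) and Cyp4b1 (461 and 303 CPM, -0.60) had lower values in the haplodeficient library with intervals that did not overlap, short of the size rule. Acot1 was at 51.4 and 95.6 CPM (0.84), Plin2 at 88.6 and 119 CPM (0.41), Etfdh, which passes electrons to ubiquinone, at 54.5 and 64.4 CPM (0.22), and Esrra at 63.4 and 74.1 CPM (0.21). Esrra and Etfdh intervals overlapped.

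Ppara, the receptor after which the set is named, had a lower value in the haplodeficient library in each proximal tubule class, at 125 and 63.8 CPM in S1/S2, 101 and 52.8 CPM in S3 and 45.6 and 34.2 CPM in injured cells. The intervals did not overlap in any of these classes and the log2 ratios, -0.92, -0.88 and -0.37, did not pass the size rule. With mitochondrial transcripts left out of the total, the Ppara ratio was -1.15 in S1/S2 and -1.05 in S3 cells, past 1 in size. Ppargc1a was at 192 and 180 CPM in S1/S2 and 97.7 and 101 CPM in S3 cells, with overlapping intervals, and at 121 and 82.5 CPM in injured cells (-0.53).

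In injured cells the lowest ratios were those of Pdk4 (96.1 and 63.7 CPM, -0.56), Ppargc1a, Acaa2 (85.9 and 58.7 CPM, -0.51), Acsl1 (83.5 and 61.7 CPM, -0.41) and Eci2 (81.5 and 62.2 CPM, -0.37). The highest were Eci1 (102 and 126 CPM, 0.29), Echs1, the enoyl-CoA hydratase (88.0 and 108 CPM, 0.27), Etfb (455 and 529 CPM, 0.21), Acadm (161 and 187 CPM, 0.21) and Acads (70.4 and 81.2 CPM, 0.19). Pdk4 had a higher value in haplodeficient S1/S2 and S3 cells and a lower one in haplodeficient injured cells, and this difference was not tested.

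**Figure D4:**
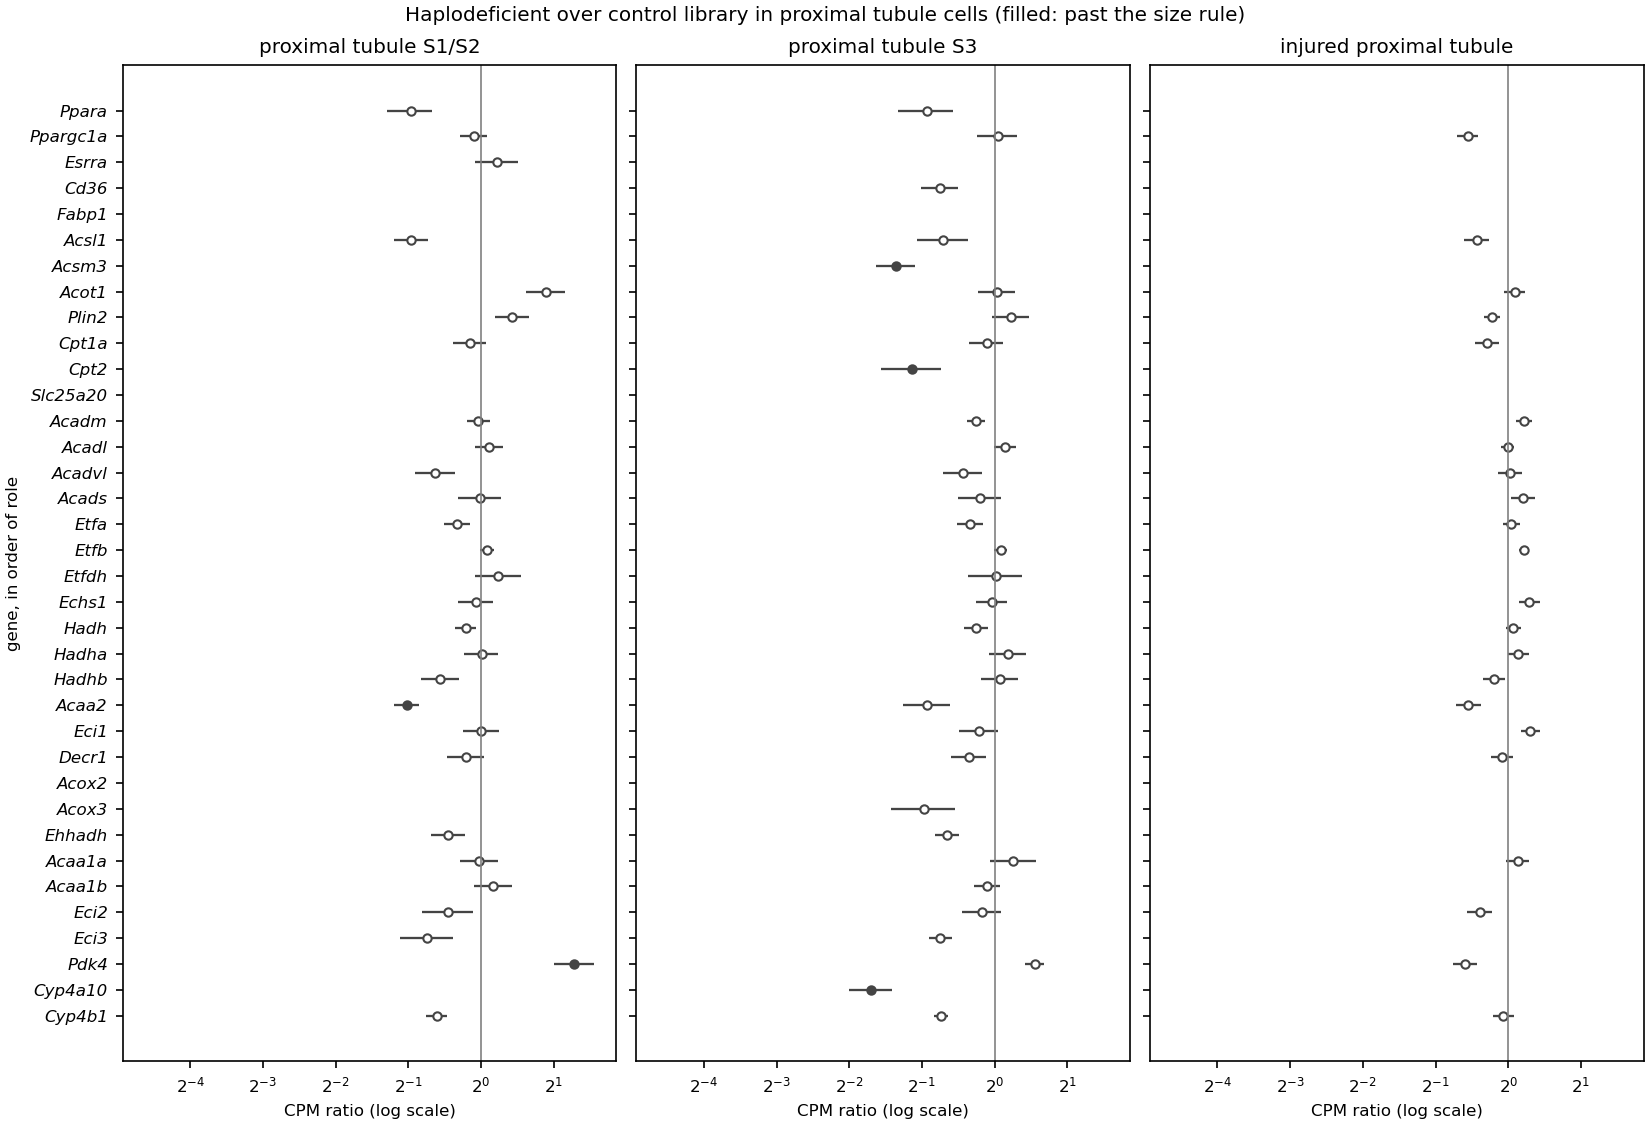
Ratio of CPM in the haplodeficient over the control library (x axis, log scale) for the 36 genes (y axis, by role) in S1/S2, S3 and injured proximal tubule cells, with exact 95% intervals as lines and filled points past the size rule. Genes that were not eligible have no point, and only Acaa2 and Pdk4 in S1/S2 and Acsm3, Cpt2 and Cyp4a10 in S3 cells are filled.

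Other measures differed between the libraries in the same cells. Mitochondrial transcripts made up 25.2% and 11.8% of UMIs in S1/S2 cells and 21.3% and 10.9% in S3 cells. Dissociation stress genes had medians of 0.79 in S1/S2 and 0.71 in S3 cells, with 7 of 15 and 6 of 16 higher in the haplodeficient library, and a median of -0.12 with none past the rule in injured cells. The 12 injury markers, of which Spp1 gave most counts, summed to 4547 and 5260 CPM in S1/S2 cells and 4293 and 7320 CPM in S3 cells, and the 8 S3 markers to 1293 and 970 CPM in S3 cells. Proximal tubule transporter genes had medians of -0.16 and -0.26. The part of these measures in the result was not tested, and with 1 library per group genotype, animal and handling cannot be told apart. If injured cells are pooled with S1 to S3 cells, 8 members are lower, where 5.99% of all eligible genes pass and 2.48% are lower, and the summed ratio is 0.643, but the pooled cells hold 628 of 3090 injured cells in the control and 340 of 550 in the haplodeficient library.

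Of the other fatty acid genes, Angptl4, an inhibitor of lipoprotein lipase and PPAR target, was higher in haplodeficient S1/S2 cells at 117 against 39.8 CPM (1.45), Fabp3 was higher in S3 cells at 91.3 against 31.3 CPM (1.41), and Hacl1, a peroxisomal lyase, was lower in injured cells at 42.0 against 92.3 CPM (-1.05). These were the sole calls among 32, 36 and 24 eligible genes of that list.

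Beyond the proximal tubule, few members passed the size rule between libraries. In endothelium, the cell type of the Cre driver, 10 members were eligible and none passed, where 0.908% of 3746 genes did. The median was 0.02 and the summed ratio 1.00 (0.963 to 1.04). The lowest and highest eligible log2 ratios there were those of Etfa (53.4 and 48.8 CPM, -0.12) and Hadha (70.4 and 86.5 CPM, 0.28), and the intervals of both genes overlapped. Ppara, Ppargc1a and Esrra were low in endothelium, at 4.00 and 3.73 CPM, 9.34 and 6.39 CPM, and 14.0 and 11.4 CPM.

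Along the rest of the nephron the medians were 0.07 in the descending thin limb, -0.12 in the thick ascending limb, -0.09 in the distal convoluted tubule, 0.00 in principal or connecting tubule cells and 0.03 in intercalated cells, over 15 to 19 eligible members. None passed in the descending thin limb, the distal convoluted tubule, principal or connecting tubule cells or intercalated cells, where 1.69%, 1.25%, 2.24% and 2.14% of all genes did. In the thick ascending limb 1 of 19 was lower, where 1.72% of 3537 genes passed and 1.13% were lower. This was Ppargc1a, at 432 and 211 CPM (-1.02). The class is made of clusters held in different proportion by the libraries, cluster 6 with 285 control and 595 haplodeficient cells and cluster 21 with 349 and 53. Within cluster 6 Ppargc1a was at 245 and 206 CPM (-0.24) and within cluster 21 at 700 and 354 CPM (-0.98), both short of the size rule.

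These clusters differed in the 36 genes within a library. Cluster 6 had 2.14% of its UMIs on injury markers in the control and 2.24% in haplodeficient cells, and cluster 21 had 0.745% and 1.35%. The median log2 ratio of members in cluster 6 over cluster 21 was -0.60 in the control, with 4 of 19 lower (Ppargc1a, Acadvl, Etfa and Hadhb), where 10.6% of 3361 genes passed and 3.39% were lower. Among haplodeficient cells it was -0.45 with none of 18 past the rule, where 6.16% of genes passed and 1.88% were lower. Ppargc1a was at 245 and 700 CPM and Hadhb at 103 and 224 CPM in clusters 6 and 21 of the control. Mitochondrial transcripts made up 7.79% of UMIs in cluster 6 and 23.6% in cluster 21 of the control, and 13 of 19 stress genes were higher in cluster 6. Their part in the result was not tested, and the pair was chosen after the clusters were seen.

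In neutrophils 1 of 5 members was higher, where 5.09% of 2906 genes passed and 2.1% were higher. This was Acadl, at 48.2 CPM from 8 UMIs in the control and 130 CPM in haplodeficient cells. No member passed in fibroblasts, pericytes, monocytes, T cells, dendritic cells, Mrc1-type or Gpnmb-type macrophages, where 2.75%, 0.959%, 2.33%, 2.81%, 2.32%, 0.996% and 1.16% of all genes did.

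Gpnmb-type macrophages, with the markers of lipid-associated macrophages, had more Cd36, Plin2 and Echs1 than Mrc1-type macrophages. The types comprised 130 control and 395 haplodeficient cells against 425 and 545. Only 8 members were eligible in each library, and 3 were higher in the control, where 17.4% of 2749 genes passed and 8.33% were higher. Of the haplodeficient 8, 2 were higher, where 18.1% of 2697 genes passed and 7.6% were higher. The median log2 ratio was 0.33 and 0.53, against 0.02 and -0.01 over all eligible genes, and the summed ratio of the 36 genes was 1.69 (1.60 to 1.78) and 1.44 (1.38 to 1.5). In control Gpnmb-type cells, Cd36 and Plin2 gave 710 and 1058 of the 3300 UMIs on the 36 genes. In control Mrc1-type cells they gave 187 and 561 of 2207. The summed ratio thus leans on these genes of uptake and storage, and was not recomputed without them.

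Cd36 rose from 107 to 460 CPM in the control (2.05) and from 115 to 278 CPM in the haplodeficient library (1.24). Echs1 rose from 29.2 to 80.3 CPM (1.32) and from 40.5 to 99.9 CPM (1.2). Plin2 rose from 322 to 685 CPM in the control (1.08), and was at 357 and 537 CPM in the haplodeficient library (0.58), where its intervals did not overlap but it missed the size rule. Cd36 passed under all 12 other settings in both libraries. The control calls of Plin2 and Echs1 were lost with each library clustered on its own and each cell named alone (lowest log2 ratios 0.52 and 0.82), and the haplodeficient Echs1 call with the members among the variable genes and each cell named alone (lowest 0.98). For Cd36 and Echs1 the ranges of the types were apart in both libraries.

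The remaining eligible genes differed less. Hadha was at 60.8 and 89.3 CPM (0.52) and at 61.2 and 87.2 CPM (0.48). Acadl was at 52.8 and 57.6 CPM (0.12) in the control and at 37.7 and 74.4 CPM (0.90) in the haplodeficient library. Acadm was at 51.6 and 57.0 CPM (0.13) in the control. Etfb, a subunit of the electron transfer flavoprotein, was at 128 and 137 CPM (0.09) and at 118 and 143 CPM (0.27). Its partner Etfa was at 64.8 and 59.5 CPM (-0.11) and at 46.6 and 60.4 CPM (0.34), and Acaa1a at 57.5 and 61.4 CPM (0.09) in the haplodeficient library. Ppara and Ppargc1a were near or at 0 in macrophages, with at most 2 UMIs of Ppargc1a and at most 1 UMI of Ppara in any type and library. Esrra was at 15.5 CPM in both types of the control and at 21.1 and 15.4 CPM in the haplodeficient library.

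Beside these, Fabp5, a fatty acid binding protein, was at 95.2 and 3390 CPM in the control and 76.6 and 3638 CPM in the haplodeficient library. Lpl was at 68.8 and 541 CPM and at 121 and 499 CPM. Glycolysis genes had a median of 1.41 with 8 of 10 higher in the control, and 1.53 with 7 of 10 higher in the haplodeficient library. Nuclear oxidative phosphorylation genes had medians of 0.47 and 0.60. Stress genes had medians of -0.79 and -1.19, with 9 of 19 and 12 of 18 lower. The median UMI count per cell was 10272 and 10900 in Gpnmb-type cells and 3864 and 4247 in Mrc1-type cells, and the part of cell depth in these ratios was not tested.

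**Figure D5:**
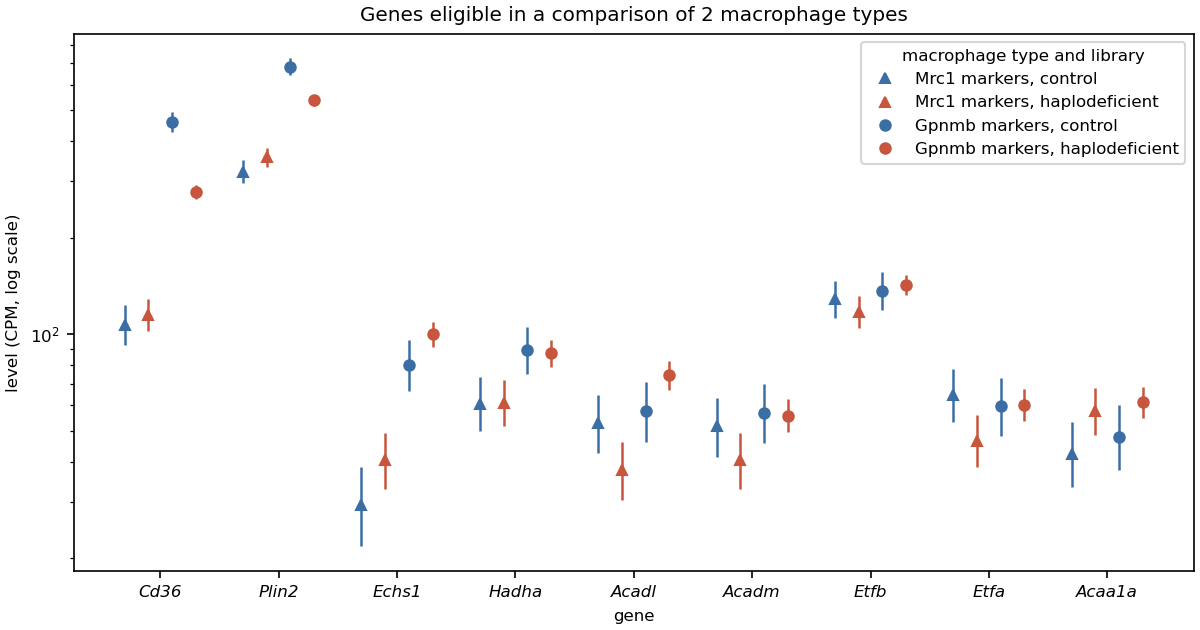
Level (y axis, CPM, log scale) of the 9 genes eligible in either library in Mrc1-type (triangles) and Gpnmb-type (circles) macrophages, with exact 95% Poisson intervals. Cd36, Plin2 and Echs1 lie higher in Gpnmb-type cells of both libraries, and Etfb and Acaa1a lie close together.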

How the data were processed

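The deposited values were raw UMI counts per gene for every barcode. The authors used Cell Ranger 4, per the file headers, and mm10, per the submitters' processing notes, and deposited barcodes without a filter. The annotation and strand setting are not given in the sources used here. The control library held 134190236 UMIs over 1342632 barcodes and the haplodeficient library 114668145 over 1430043. Barcodes with under 500 UMIs, under 200 genes or over 50% mitochondrial UMIs were left out. Doublets were the 715 and 804 cells with the highest simulated-doublet scores, at 0.8% per 1000 cells. Both libraries were clustered together on 2000 variable genes, without the 36 genes and 74 other fatty acid genes, with 30 components, 15 neighbours and the Leiden method at resolution 1.0 (numpy 2.4.6, scipy 1.17.1, scikit-learn 1.9.0, leidenalg 0.10.2), for 37 clusters in all.

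Names came from marker lists of 20 classes. The scoring was revised after the clusters were seen and before any comparison of the 36 genes was read. A name needed at least 3 markers in at least 10% of cells at 2-fold or more. A macrophage type needed a mean log2 fold of its markers over 0.5. Unnamed clusters were left out. UMIs were summed per class and library and scaled to CPM. The share due to free RNA was estimated from barcodes of at most 100 UMIs. The comparisons of clusters 6 and 21 and of endothelium were chosen after the data were seen. The size rule was tested on simulated counts with known changes, and the ratio interval was checked on a known ratio. Interval coverage was not tested.

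All 36 genes are accounted for. Values per library are given for the 5 highest and 5 lowest eligible genes of the proximal tubule and macrophage type comparisons and for Ppara, Ppargc1a and Esrra, and at most 5 called genes of another list are named. Other classes are given by medians, counts and a few genes. The members and all lists were chosen with earlier results of these data known. Alternatives changed the pseudocount, scaling, filters, doublets, clustering, naming and free RNA, and 2 were added after seeing the data (injured cells pooled, and the larger cluster of each segment alone). Acaa1a with Acaa1b, Acot1 with Acot2, and Cyp4a10 with Cyp4a31 and Cyp4a32 are near copies whose counts are uncertain. Gene positions come from GENCODE M21, and start-site sequences from RefSeq.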

Additional observations from a re-analysis of the deposited data

How the results depend on the processing

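No paired analysis was possible because each group is 1 library, and no replicate could be left out for the same reason. The 3 members past the size rule between libraries in S1 to S3 cells became 7 when mitochondrial UMIs were left out of the total and 7 with median-of-ratios scaling, 6 with a mitochondrial limit of 25%, 9 at clustering resolution 2, 5 with the members among the variable genes, 9 with each library clustered on its own and 9 with each cell named alone. The alternatives chosen after seeing the data gave 8 (injured cells pooled) and 5 (the larger cluster of each segment). Acsm3 and Cyp4a10 passed under all 12 other settings there, and Cpt2 under 11. The S3 median of -0.23 became -0.66 at resolution 2 and -0.53 with the members among the variable genes. Clustering each library on its own left no haplodeficient S3 class and so no value. The count of 9 under that setting thus had no cells named S3 on the haplodeficient side. The median for injured cells became -0.98, -1.06, -0.62 and -1.16 in the control (without mitochondrial UMIs, median-of-ratios, doublets kept, each cell named alone), and -0.63 and -0.93 in the haplodeficient library (minimum mean of 10 CPM, each cell named alone). The control macrophage median became 0.74 with the 25% limit. The cause of these shifts was not tested. No direction of these medians reversed. Over every gene and setting, 527 values moved beyond their interval and 1673 did not. With 1 library per group the spread between animals is unknown, and the 87 S3 and 123 S1/S2 haplodeficient cells limit the precision of those comparisons.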

Other observations

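An unnamed cluster of shallow cells with proximal tubule genes (422 control and 129 haplodeficient cells, median 1397 UMIs) had 0.508% and 0.417% of its UMIs on the 36 genes, near the shares of S1/S2 cells.

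A search of RefSeq promoter windows, 250 bases before to 50 after each start on GRCm38.p6, matched 33 of the 36 genes. The ERR element TCAAGGTCA, on either strand, was in 0 of 33 and in 0.466% of 27025 genes. A direct repeat of AGGNCA with any 1 base between the copies, the DR1 form that PPAR binds, on either strand, was in 1 of 33 and in 0.451% of all genes. The match was in Fabp1, 67 bases before the start and on the opposite strand. These letters say nothing about sites elsewhere. Across eligible members, the number of CG pairs in the 250 bases before the start and the log2 ratio of injured to other proximal tubule cells had a Spearman correlation of 0.24 in both libraries (27 and 23 genes). The median log2 ratio was -2.09 for the 4 control genes with fewer than 5 CG pairs and -0.75 for the other 23, and -1.46 for 3 and -0.32 for 20 haplodeficient genes, with no test. Genes are not independent replicates, and this look was chosen after the values were seen.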
